A study of Mus musculus with 4 samples.

Results

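The S100 genes encode small calcium binding proteins of the EF-hand type, and 10 of them were followed across the cells of the postnatal mouse thyroid: S100a1, S100a4, S100a5, S100a6, S100a8, S100a9, S100a10, S100a11, S100a13 and S100g. They were taken by their gene symbols from the 32285 genes of the count matrices. Thyroid tissue of C57 mice, which the study's methods give as C57BL/6, was dissociated at postnatal day 5, 10, 20 or 30, the tissue of 10 mice was pooled for each age, and each pool gave 1 droplet single-cell library. The labels name no treatment and no altered allele. The values are raw counts of unique molecular identifiers (UMIs), each UMI standing for a captured transcript. An age therefore had 1 library and no replicate, so ages were not tested against each other, and the 4 libraries served as replicates for differences between cell classes.

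Many S100 proteins, though not all, change shape when they bind calcium and then dock on a partner protein, such as an annexin, a cytoskeletal protein or a receptor at the cell surface. Most S100 proteins act as dimers inside the cell. S100A8 and S100A9 pair with each other and are released by neutrophils and monocytes as a danger signal in inflammation.

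Cells were grouped into classes by marker genes that hold no S100 gene, and the S100 genes were left out of the features for clustering. Of 23116 cells used, 2133 were follicular-like, 230 neutrophil-like, 477 monocyte-like, 2558 fibroblast-like, 5090 endothelial-like and 304 Schwann-like. These names are shortened below to the follicular, neutrophil, monocyte, fibroblast, endothelial and Schwann class. In the follicular class 7 of its 8 markers reached 20 CPM, and in the other classes every marker of the class did. CPM is the number of UMIs of a gene in every 1000000 UMIs of a class in a library. Some markers also reached it in other classes, here with the libraries pooled. Among them, 3 of 6 fibroblast markers did so in the Schwann class, with 2978 CPM summed beside 28878 in fibroblasts. In the neutrophil class 4 of 7 monocyte markers did so, with 952 CPM summed beside 7275 in monocytes. The smallest groups were the 15 neutrophil and 15 monocyte cells of the library labelled day 20 and the 19 Schwann cells of the library labelled day 30. A further 2106 cells in 4 clusters stayed unnamed.

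The libraries held 54921806 to 89039113 UMIs over 1745460 to 2258644 barcodes, and the median depth of the used cells was 2555.5 to 4231.5 UMIs. The matrices labelled day 10, 20 and 30 each also contained 97.4% to 98.8% of the barcodes called cells in the other two, with a median of 8 to 12 UMIs there, and 12 to 30 barcodes per pair of libraries were listed as a cell in both. The imprinted gene H19, which is known to fall after birth, stood in the fibroblast class at 63.9 CPM in the library labelled day 5, 525 CPM in that labelled day 10, 71.7 CPM in that labelled day 20 and 1906 CPM in that labelled day 30. This order goes against the labels of the outer libraries. The authors' list of cell barcodes held 15223 for the library labelled day 5 and 6506 for that labelled day 30. The paper, however, kept more cells at day 30 than at day 5. Libraries are therefore called by their labels and no direction with age is read from any value. Comparisons between classes within libraries do not use the ages. The free RNA of each library was measured in droplets of 10 to 100 UMIs that were not listed as cells.

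**Figure D1:**
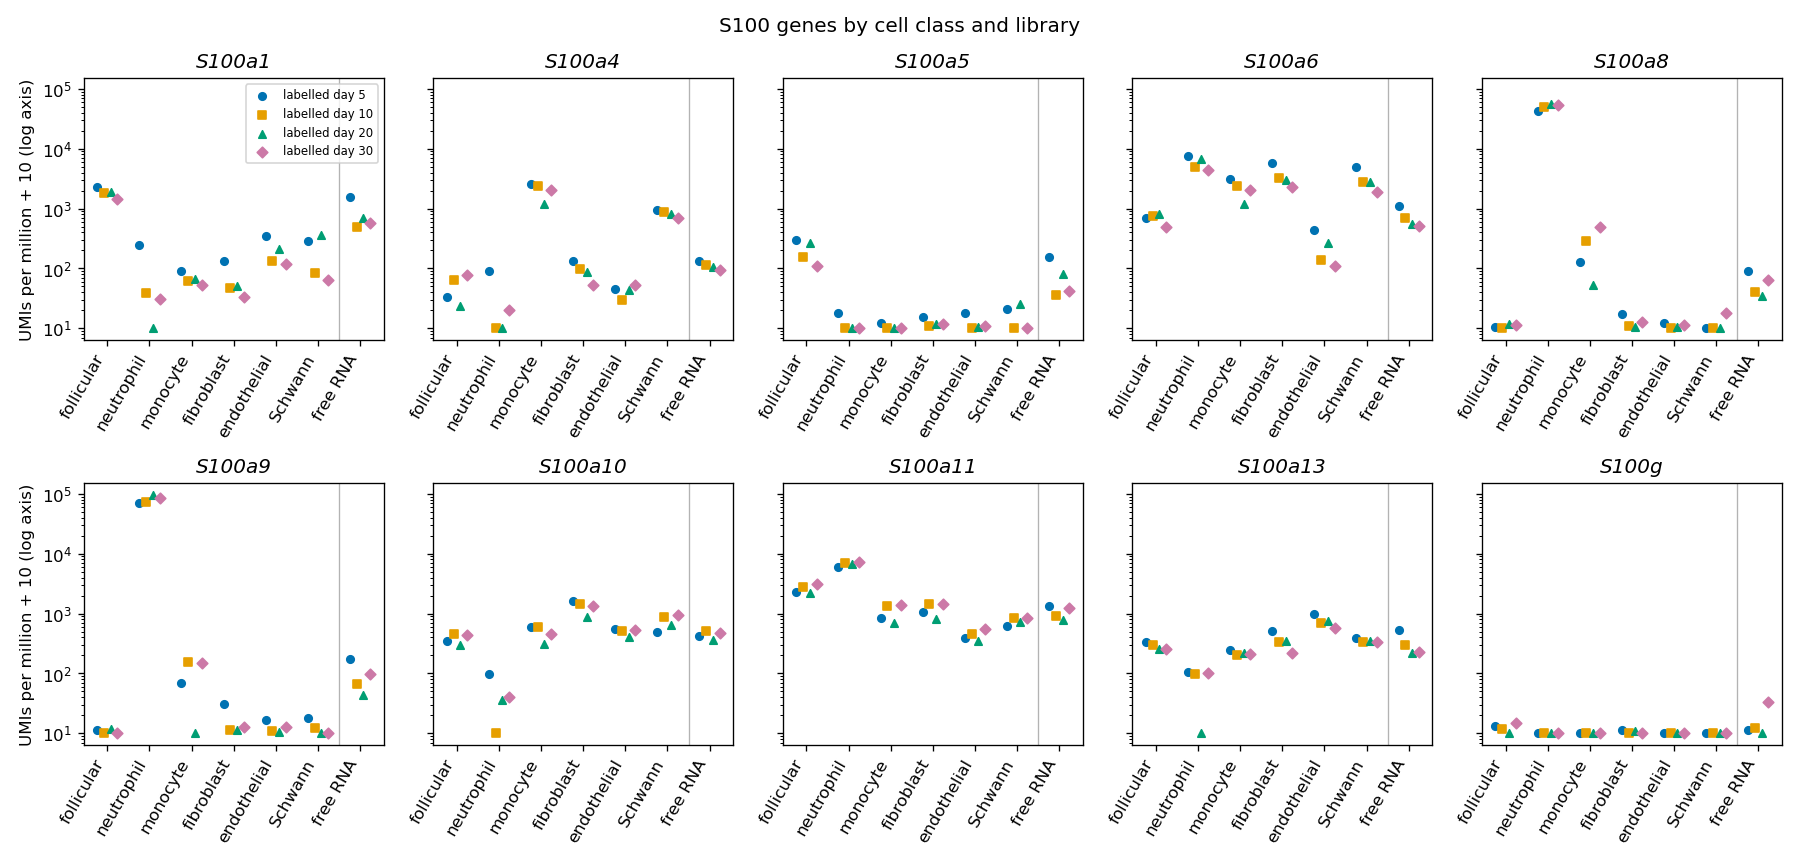
Level of each S100 gene in the 6 cell classes and in free RNA, as CPM plus 10 on a log axis, with 1 point for each of the 4 libraries as labelled. S100a8 and S100a9 lie at 42963 CPM or more in the neutrophil class of every library, S100a1 and S100a5 are highest in the follicular class, S100a4 in the monocyte class and S100a13 in the endothelial class.

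S100a8 and S100a9, the calprotectin pair, were the genes with the highest levels among the members. Nearly all of their transcripts in the used cells lay in neutrophils. The neutrophil class held 0.521% of the UMIs of all used cells but 96.8% of the S100a8 UMIs and 97.6% of the S100a9 UMIs. S100a8 lies at chr3:90668978-90670035 and S100a9 at chr3:90692632-90695721 (GRCm38), on opposite strands. The RefSeq start of S100a8 used below, 90669071, lies inside this gene interval, so the bases shown before it overlap the interval. Since both were highest in neutrophils, the 250 bases before their RefSeq starts (GRCm38.p6) are shown 5′ to 3′ on the strand of the gene. They lie at chr3:90668821-90669070 on the plus strand and chr3:90695722-90695971 on the minus strand. Capitals mark the letters TATAAA, the core of a TATA box, and TTNNGNAA, letters found in the binding sites of C/EBP factors, read on both strands.
S100a8: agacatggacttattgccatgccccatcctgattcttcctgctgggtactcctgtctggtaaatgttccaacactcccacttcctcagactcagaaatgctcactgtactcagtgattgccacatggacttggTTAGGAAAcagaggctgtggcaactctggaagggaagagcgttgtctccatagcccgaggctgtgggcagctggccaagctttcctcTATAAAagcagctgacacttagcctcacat
S100a9: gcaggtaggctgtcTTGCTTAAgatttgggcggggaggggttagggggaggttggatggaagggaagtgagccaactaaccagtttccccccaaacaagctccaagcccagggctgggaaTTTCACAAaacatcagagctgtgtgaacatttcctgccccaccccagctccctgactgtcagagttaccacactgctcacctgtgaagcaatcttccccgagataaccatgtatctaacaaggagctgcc
Among the 9 members with a RefSeq window of 250 bases before to 50 after the start, TTNNGNAA occurred in those of S100a8, S100a9 and S100g, beside 40.7% of all 32851 windows. TATAAA occurred in the windows of S100a4, S100a8, S100a9 and S100g, beside 13.6% of all windows. It began at position -31 from the start of S100a4 and -30 from that of S100a8. In S100a9 and S100g it began at position 1, the start itself, which for S100a9 is the first base after the stretch shown. These are matches of letters and not tests of binding.

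In the neutrophil class S100a8 stood at 42963 CPM in the library labelled day 5, 49705 CPM in that labelled day 10, 56289 CPM in that labelled day 20 and 54508 CPM in that labelled day 30. S100a9 stood at 69954, 73327, 94256 and 83421 CPM in the same order. Both genes together made up 11.3%, 12.3%, 15.1% and 13.8% of the neutrophil UMIs. The library labelled day 5 was lowest for both genes, and every neutrophil value lay far above every value of the other classes. Single neutrophils ranged widely, from 0.287% to 39.5% of their UMIs in the library labelled day 5, where the median was 8.34%. Both genes had a UMI in 91 of 92, 54 of 54, 15 of 15 and 68 of 69 neutrophils in the 4 libraries.

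The neutrophil class was compared with the mean of the other 5 classes in edgeR (quasi-likelihood) with a term for the library and Benjamini-Hochberg adjustment over the 10352 genes tested. Of 9 members tested, 4 were higher and 4 lower in neutrophils, where 15.7% of all genes were higher and 32.6% lower. One of the lower calls, that of S100a1, was lost without the library block, without the library labelled day 10, 20 or 30, with cells over 10000 UMIs kept and with cells of at least 1000 UMIs. S100a8 was higher by 13.89 on the log2 scale (SE 0.30, edgeR adjusted p = 3.895e-27) and S100a9 by 14.04 (SE 0.33, edgeR adjusted p = 7.149e-26). Since the follicular, fibroblast, endothelial and Schwann sums held 0 to 138 UMIs of either gene, these sizes depend on the prior count of the fit. Against the monocyte class, the next in order, S100a8 was higher by 7.81 (SE 0.46, edgeR adjusted p = 2.803e-14) and S100a9 by 9.72 (SE 0.57, edgeR adjusted p = 2.803e-14).

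In the monocyte class S100a8 stood at 118 CPM in the library labelled day 5, 281 CPM in that labelled day 10, 42.6 CPM in that labelled day 20 and 490 CPM in that labelled day 30. Free RNA of the same libraries held 81.9, 30.5, 25.1 and 53.1 CPM of S100a8. S100a9 was at 60.3, 145, 0 and 138 CPM in monocytes, beside 167, 57.4, 34.1 and 89.0 CPM in free RNA. Against the mean of the other classes, S100a8 was higher in monocytes by 4.51 (SE 0.38, edgeR adjusted p = 8.023e-12) and S100a9 by 2.38 (SE 0.46, edgeR adjusted p = 6.773e-05).

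A minority of monocytes carried these transcripts. S100a8 had a UMI in 14 of 261, 16 of 85, 1 of 15 and 25 of 116 monocytes, which is 5.36%, 18.8%, 6.67% and 21.6% of cells. After thinning every cell to 1000 UMIs, which left out 6, 2, 0 and 7 shallower cells, the shares were 1.96%, 8.43%, 0% and 10.1%. The thinned share in the follicular class, which should lack the gene, was 0.0691% in the library labelled day 5 and 0% in the others, with a median depth of 1964 to 6716.5 UMIs beside 3012 to 4780.5 UMIs in monocytes. A single monocyte held 83 of the 98 S100a8 UMIs of the library labelled day 5, 25 of the 103 of that labelled day 10 and 133 of the 281 of that labelled day 30. The first and the last of these cells held 43 of 50 and 75 of 79 S100a9 UMIs. They had 26 and 21 UMIs of the monocyte marker Ly6c2, and 0 of the neutrophil markers Csf3r and Retnlg. The cell of the library labelled day 10 had 10 UMIs of Ly6c2, 2 of Csf3r and 0 of Retnlg. Chil3, a leading gene of the monocyte cluster, had 19 UMIs in the cell of the library labelled day 5. It had 0 in the cells of those labelled day 10 and 30. Other neutrophil markers were not counted in these cells. Without the highest cell, S100a8 was at 18.2 CPM in the library labelled day 5, 217 CPM in that labelled day 10 and 262 CPM in that labelled day 30, and S100a9 at 8.50, 94.6 and 7.08 CPM. S100a8 then stood above free RNA in the latter 2 libraries, and S100a9 in that labelled day 10. There 4 of 85 monocytes had an S100a9 UMI, and a cell that was not removed held 28 of the 53 UMIs.

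The balance of the pair differed between the classes. In neutrophils there were 1.63, 1.48, 1.67 and 1.53 S100a9 UMIs for each S100a8 UMI, and in free RNA 2.04, 1.88, 1.36 and 1.68. In monocytes the ratio was 0.510, 0.515 and 0.281 at labelled days 5, 10 and 30, while 3 S100a8 UMIs and 0 S100a9 UMIs were found at labelled day 20. Each monocyte ratio lay under each neutrophil and free RNA ratio. A single monocyte gave 43 of 50 S100a9 UMIs at labelled day 5 and 75 of 79 at labelled day 30. S100a9 in these ratios thus rests largely on 1 cell per library. Of the monocytes with S100a8, 11 of 14, 13 of 16, 1 of 1 and 22 of 25 had no UMI of S100a9.

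**Figure D2:**
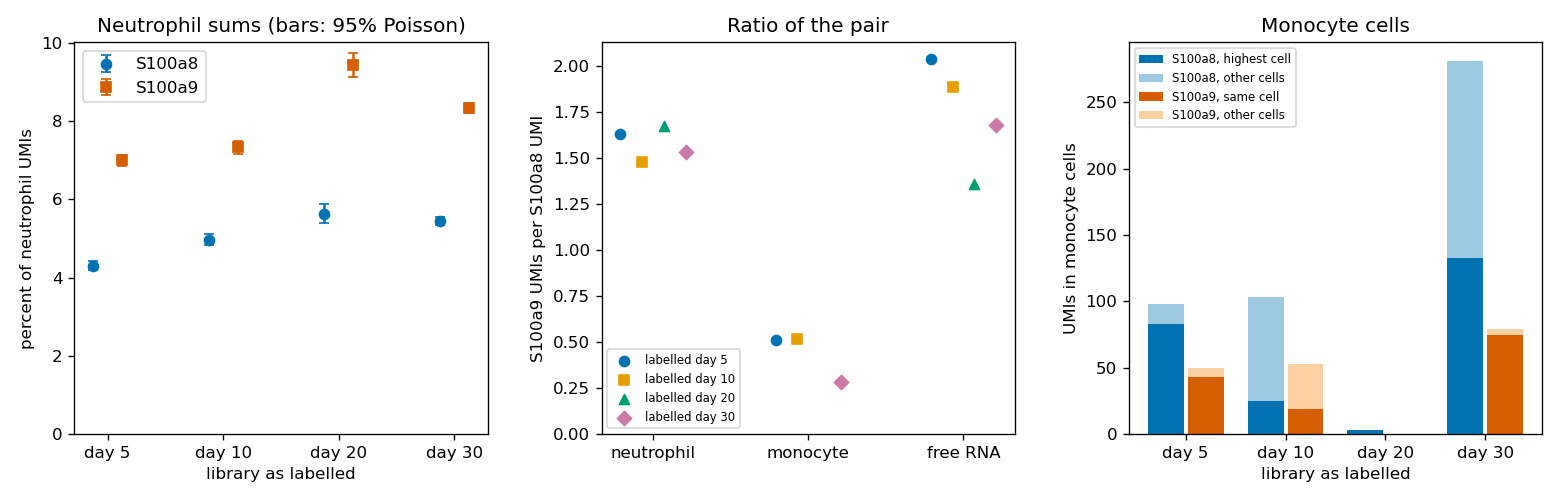
Left, S100a8 and S100a9 as percent of neutrophil UMIs by library with exact 95% Poisson intervals; middle, S100a9 UMIs per S100a8 UMI in neutrophils, monocytes and free RNA; right, UMIs of both genes in monocytes, split into the cell with most S100a8 and the other cells. S100a9 exceeds S100a8 in neutrophils and free RNA of every library, S100a8 exceeds S100a9 in monocytes, and the cell with most S100a8 holds 133 of 281 S100a8 UMIs in the library labelled day 30.

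S100a6, S100a10 and S100a11 encode partners of annexins, and each had its own order of classes. S100a6 (chr3:90612882-90624181) was highest in neutrophils, fibroblasts, Schwann cells and monocytes among the 6 classes. Outside them, an unnamed cluster of 453 cells, cluster 18, held 4327, 3161, 2593 and 2781 CPM of S100a6, mural, natural killer and dendritic cells had means of 1294, 1188 and 1140 CPM over the libraries, macrophages and B cells means of 281 and 254 CPM, and T cells 10.7 to 1023 CPM. Neutrophils held 7519, 4992, 6804 and 4338 CPM of S100a6, in the order of the labelled ages. Fibroblasts held 5847, 3227, 2985 and 2249 CPM of S100a6 in that order. Schwann cells held 4886, 2771, 2742 and 1889 CPM, and monocytes 3106, 2388, 1192 and 2025 CPM. The follicular class held 490 to 793 CPM and the endothelial class 101 to 429 CPM, below every value of the other 4 classes. Neutrophils were higher than fibroblasts by 0.82 (SE 0.27, edgeR adjusted p = 0.01029), while fibroblasts and Schwann cells (edgeR adjusted p = 0.278) and Schwann cells and monocytes (edgeR adjusted p = 0.8093) did not differ beyond their spread.

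S100a10, the light chain of the annexin A2 complex (chr3:93555080-93564643), was highest in fibroblasts among the 6 classes, at 1598, 1452, 878 and 1328 CPM. Schwann cells held 473, 873, 636 and 952 CPM of S100a10, so the ranges of both classes overlapped across libraries. Fibroblasts were higher than Schwann cells by 1.05 (SE 0.26, edgeR adjusted p = 0.001771) within libraries. In neutrophils S100a10 was at 89.3, 0, 25.5 and 31.1 CPM, under free RNA at 350 to 496 CPM, and it was lower than in the other classes (log2 difference -3.81, SE 0.37, edgeR adjusted p = 2.876e-10). Endothelial cells held 399 to 545 CPM, monocytes 298 to 596 CPM and follicular cells 285 to 444 CPM, and neighbours among Schwann, endothelial, monocyte and follicular cells did not differ beyond their spread (edgeR adjusted p = 0.07024 to 0.473). Follicular cells, the last of these, were below Schwann cells, the first (log2 difference -0.78, SE 0.26, edgeR adjusted p = 0.01542).

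S100a11 (chr3:93520488-93526287) had its highest values in neutrophils, at 5984, 7053, 6651 and 7211 CPM. Follicular cells were next with 2248, 2786, 2227 and 3056 CPM, and no value of the other 4 classes tested reached either range. An unnamed cluster of 623 cells, cluster 11, which was led by the epithelial keratins Krt18 and Krt8 and was outside the test, held 2638, 4341, 2413 and 4853 CPM of S100a11. Neutrophils were higher than follicular cells by 1.45 (SE 0.19, edgeR adjusted p = 1.034e-07), and follicular cells higher than fibroblasts by 1.13 (SE 0.19, edgeR adjusted p = 4.33e-06). The endothelial class was the lowest of the 6 with 343 to 542 CPM, and macrophages, outside the test, held 220 to 266 CPM. With the deeper cells over 10000 UMIs kept, follicular S100a11 was at 1947, 2071, 1593 and 2003 CPM. Fibroblasts then held 1732 CPM in the library labelled day 30, above the lowest follicular value.

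S100a4, a binding partner of non-muscle myosin that is also used as a fibroblast marker (chr3:90603771-90606045), was highest in monocytes and then in Schwann cells among the 6 classes. In monocytes it stood at 2543, 2397, 1163 and 2018 CPM. Schwann cells held 932, 883, 803 and 674 CPM of S100a4 and lay below every monocyte value. Monocytes were higher than Schwann cells by 1.61 (SE 0.35, edgeR adjusted p = 0.0002666), and Schwann cells higher than fibroblasts by 3.08 (SE 0.37, edgeR adjusted p = 4.917e-08). Fibroblasts held 121, 88.0, 78.7 and 42.6 CPM of S100a4, each below the 122, 104, 96.1 and 84.8 CPM of free RNA in the same library. Neutrophils had 10 UMIs in the library labelled day 5, 2 in that labelled day 30 and 0 in the others, where 3 UMIs would be a level of 29.3 CPM in the library labelled day 10 and 76.4 CPM in that labelled day 20. In the library labelled day 5, 75.3% of monocytes and 43.8% of Schwann cells had an S100a4 UMI after thinning, beside 2.21% of follicular cells. In the library labelled day 30 the shares were 75.2%, 42.1% and 2.75%, and in that labelled day 10 69.9%, 54.4% and 5.56%. The library labelled day 20 had the other order, with 46.7% of 15 monocytes, 52.2% of 23 Schwann cells and 0.826% of follicular cells. In the library labelled day 5 the median depth of all cells in these classes was 3012, 1926 and 6716.5 UMIs. There 86.6%, 59.4% and 11.2% of cells had an S100a4 UMI before thinning.

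S100a4 also differed among the lymphoid and dendritic cells, which were not part of the test. The unnamed cluster 18, led by Trdc and Il17a, genes of gamma-delta and interleukin-17 producing T cells, held 3013, 3970, 2852 and 3909 CPM of S100a4, above each of the 6 classes in every library. Its S100a10 was at 2016, 2252, 1533 and 2118 CPM, also above each of the 6 classes in the same library. Cells with markers of type 2 innate lymphoid cells held 1178, 1714, 952 and 2258 CPM of S100a4, and cells with natural killer markers 867, 1056, 439 and 681 CPM. In the T cell class S100a4 was at 660, 118, 3.77 and 3.48 CPM, from 352, 168, 3435 and 1109 cells. This class is not 1 cell type. A cluster led by Rag1, with thymocyte-like cells, gave 98, 9, 1612 and 371 of its cells. Another, led by Myb, Ccr9 and Rag1, gave 62, 8, 373 and 131. Dendritic cells held 1632, 878, 746 and 21.2 CPM, the last from 12 cells with 1 UMI. The libraries thus lie far apart for these classes, whose make-up differs between libraries, and the part of cell make-up was not tested.

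**Figure D3:**
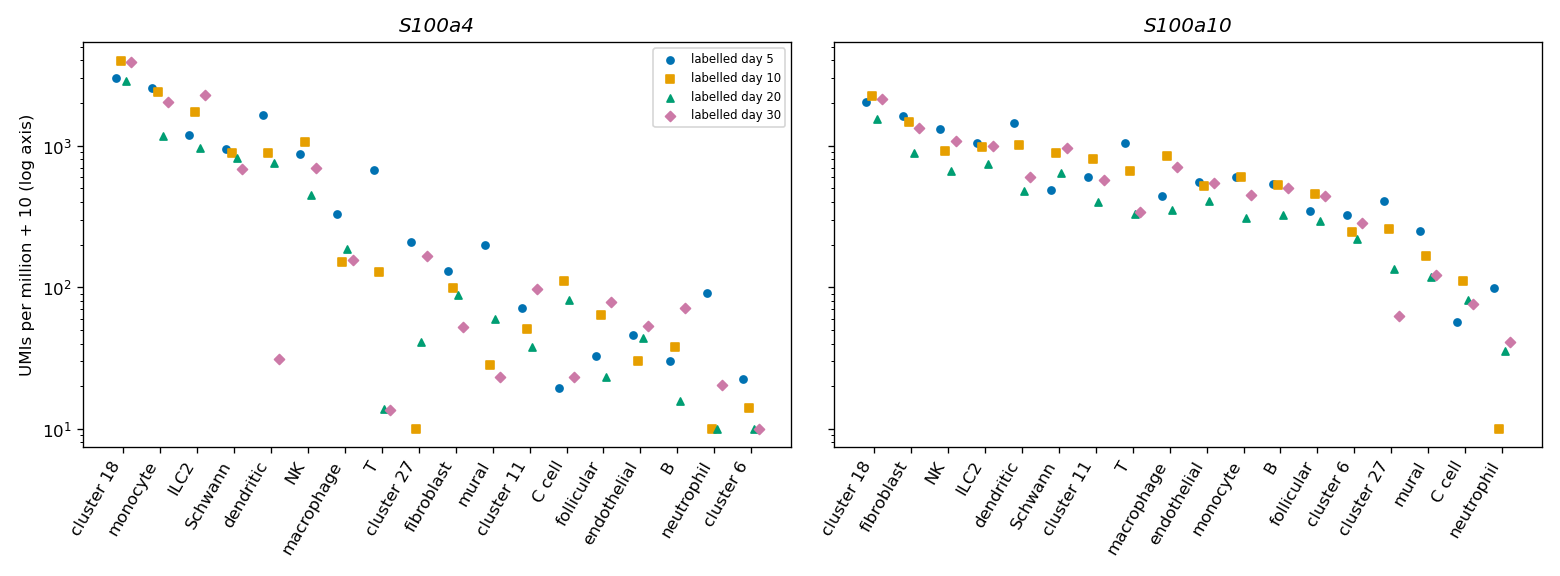
S100a4 (left) and S100a10 (right) in every named class and unnamed cluster with cells in all 4 libraries, as CPM plus 10 on a log axis, ordered by the mean over libraries, with 1 point per library. Cluster 18, led by Trdc and Il17a, stands first for both genes. The T cell class, which includes thymocyte-like cells led by Rag1 in shares that differ between libraries, spreads from 3.48 to 660 CPM of S100a4.

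Among the 6 classes, S100a1 and S100a5 were highest in follicular cells. S100a1, which binds sarcoplasmic calcium channels in heart and muscle, and S100a5, best known from olfactory neurons, lie in the gene cluster at chr3:90511034-90514392 and chr3:90608523-90611780. In the follicular class S100a1 stood at 2313, 1794, 1899 and 1449 CPM in the order of the labelled ages, and S100a5 at 291, 146, 254 and 100 CPM. The lowest follicular value of each gene lay above the highest value of the other 5 classes, which was 348 CPM for S100a1 and 15.2 CPM for S100a5. The unnamed cluster 11, whose markers scored nearest to the follicular list but whose cells had a median of 873 UMIs, held 2913, 2207, 1571 and 2067 CPM of S100a1 and 252, 234, 253 and 21.8 CPM of S100a5. The class named from C cell markers held 91.0 to 885 CPM of S100a1. It was led by Calca and by Pth, which the paper uses as a parathyroid marker, so it is not C cells alone. S100a1 was higher in follicular cells than in the other classes by 4.46 (SE 0.19, edgeR adjusted p = 8.808e-19) and S100a5 by 6.42 (SE 0.25, edgeR adjusted p = 7.639e-20). S100a5 held 3103 UMIs in follicular cells and at most 99 in each other class of the 6, so its follicular level also decided that it was tested. Together with S100a11, 3 of 9 members were higher in the follicular class and 4 were lower (S100a4, S100a6, S100a8 and S100a9), where 38.6% of all genes were higher and 19% lower. The S100a8 call was lost without the library labelled day 30, at a 5% mitochondrial limit and with 12% of cells removed as doublets. The mean of the other classes includes neutrophils, so classes with few S100a8 and S100a9 UMIs fall below it. This also holds for these lower calls in fibroblast, endothelial and Schwann cells. Follicular S100a8 was below fibroblasts (edgeR adjusted p = 0.00856) but did not differ from endothelial (edgeR adjusted p = 0.2324) or Schwann cells (edgeR adjusted p = 0.8618). With cells over 10000 UMIs kept, follicular S100a1 was at 2203, 1405, 1645 and 1183 CPM and S100a5 at 281, 103, 243 and 73.9 CPM.

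Free RNA carried follicular transcripts in all libraries, with 1569, 489, 697 and 571 CPM of S100a1 and 145, 26.2, 71.4 and 31.4 CPM of S100a5. Endothelial cells held 334, 121, 200 and 107 CPM of S100a1, which is 21.3%, 24.8%, 28.7% and 18.7% of the level in free RNA. Thyroglobulin (Tg), the main follicular transcript, stood in the same cells at 9.33%, 5.03%, 5.06% and 3.33% of its free level, and S100a5 at 5.70%, 1.08%, 0.973% and 3.17%. In fibroblasts S100a1 was at 4.04% to 7.75% and Tg at 2.43% to 5.75% of the free level. In Schwann cells S100a1 was at 17.6%, 15.2%, 49.99% and 9.50% and Tg at 8.42%, 5.07%, 16.6% and 4.32%. A single cell held 16 of the 23 S100a1 UMIs of the 24 Schwann cells in the library labelled day 20, and clustering without integration, which left 23 cells there, gave 116 CPM in place of 348 CPM. In monocytes S100a1 was at 5.15% to 10.6% and Tg at 3.99% to 4.81%. The S100a1 share lay above the Tg share in the endothelial, fibroblast, monocyte and Schwann cells of every library, and in the neutrophils of 2 of the 4. After thinning, 27.8%, 11.2%, 15.4% and 8.88% of endothelial cells had an S100a1 UMI, beside 85.2%, 78.6%, 74.4% and 72.5% of follicular cells. The median depth was 2381 to 5695 UMIs in endothelial and 1964 to 6716.5 UMIs in follicular cells, and the shares before thinning were 35.0% to 57.8% and 88.4% to 99.2%. Endothelial cells and Schwann cells, at 277, 74.2, 348 and 54.2 CPM, did not differ beyond their spread (edgeR adjusted p = 0.523).

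**Figure D4:**
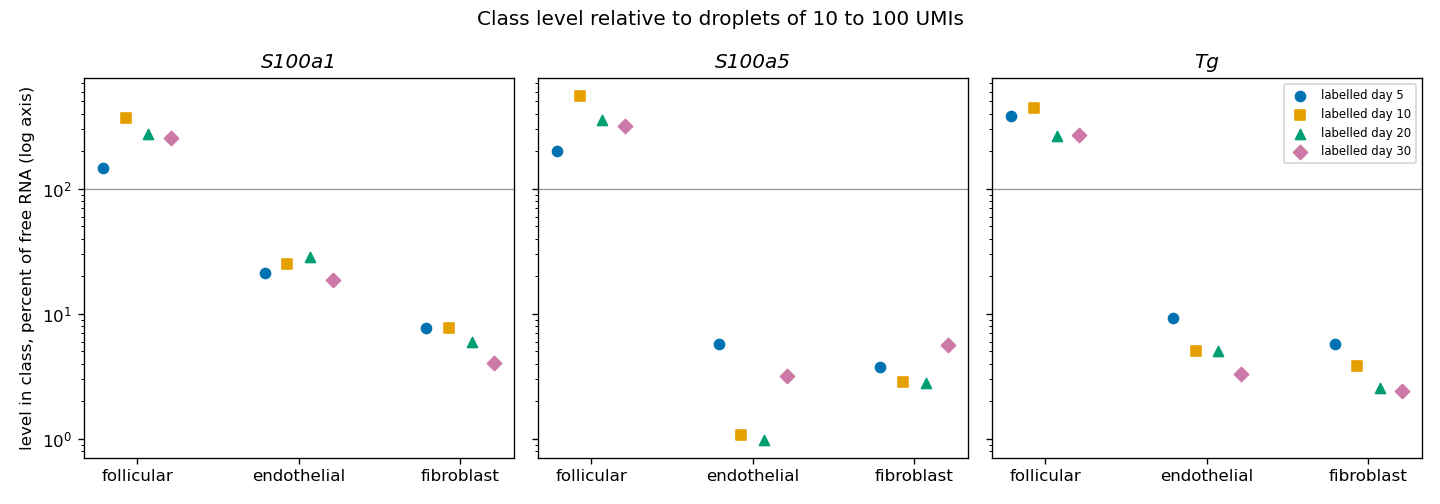
Level of S100a1, S100a5 and thyroglobulin (Tg) in follicular, endothelial and fibroblast cells as percent of the level in free RNA of the same library, on a log axis, with 1 point per library and a line at 100 percent. All 3 genes lie above the line in follicular cells, and endothelial S100a1 lies at 18.7% to 28.7% where endothelial Tg lies at 3.33% to 9.33%.

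S100a13, which takes part in the release of proteins that lack a signal peptide, starts next to S100a1 on the other strand (chr3:90514435-90524581) and had another order of classes. The 104 bases between the RefSeq starts of both genes, chr3:90514331-90514434 on GRCm38.p6, are shown on the plus strand, 5′ to 3′ towards S100a13, since 2 genes with unlike patterns start at its ends.
S100a1 to S100a13: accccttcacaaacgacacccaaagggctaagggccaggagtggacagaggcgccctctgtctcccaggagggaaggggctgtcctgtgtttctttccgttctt
The RefSeq start of S100a1, 90514330, lies inside the S100a1 interval given above, so the stretch overlaps that interval up to 90514392. The stretch holds 58.7% G and C, and neither TATAAA nor TTNNGNAA lies in the windows of these genes. In endothelial cells S100a13 stood at 971, 676, 733 and 562 CPM, above every value of the other 5 classes tested. Schwann cells held 382, 321, 333 and 325 CPM, fibroblasts 507, 322, 343 and 206 CPM, follicular cells 321, 288, 250 and 244 CPM and monocytes 234, 191, 213 and 199 CPM. The neutrophil class was the lowest of the 6 with 97.4, 87.9, 0 and 93.2 CPM. Endothelial cells were higher than Schwann cells by 1.17 (SE 0.23, edgeR adjusted p = 8.404e-05). Schwann, fibroblast, follicular and monocyte cells followed each other, and neighbours in this order did not differ beyond their spread (edgeR adjusted p = 0.1944 to 0.5704). Monocytes were below fibroblasts, which are not neighbours in it (log2 difference -0.57, SE 0.22, edgeR adjusted p = 0.02757). S100a13 was the only member higher in the endothelial class (log2 difference 1.56, SE 0.15, edgeR adjusted p = 2.606e-10), and 5 members were lower, where 35.6% of all genes were higher and 13.7% lower. The lower S100a8 call was lost there under the same 3 settings as in follicular cells.

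S100g encodes calbindin-D9k, a vitamin D dependent carrier of calcium in gut and kidney (chrX:162961992-162964599). It was near the limit of detection and did not reach the filter on low counts. Follicular cells held 32, 2, 0 and 4 UMIs of S100g, or 3.44, 1.63, 0 and 4.95 CPM, from 5, 1, 0 and 3 cells. Fibroblasts held 12 UMIs in all libraries together and endothelial cells 4. The neutrophil, monocyte and Schwann classes held 0 UMIs in every library, which allows up to 3.62 CPM in monocytes of the library labelled day 5 and up to 76.4 CPM in neutrophils of that labelled day 20. Free RNA of the library labelled day 30 held 68 UMIs, or 23.7 CPM, in 65 droplets.

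**Figure D5:**
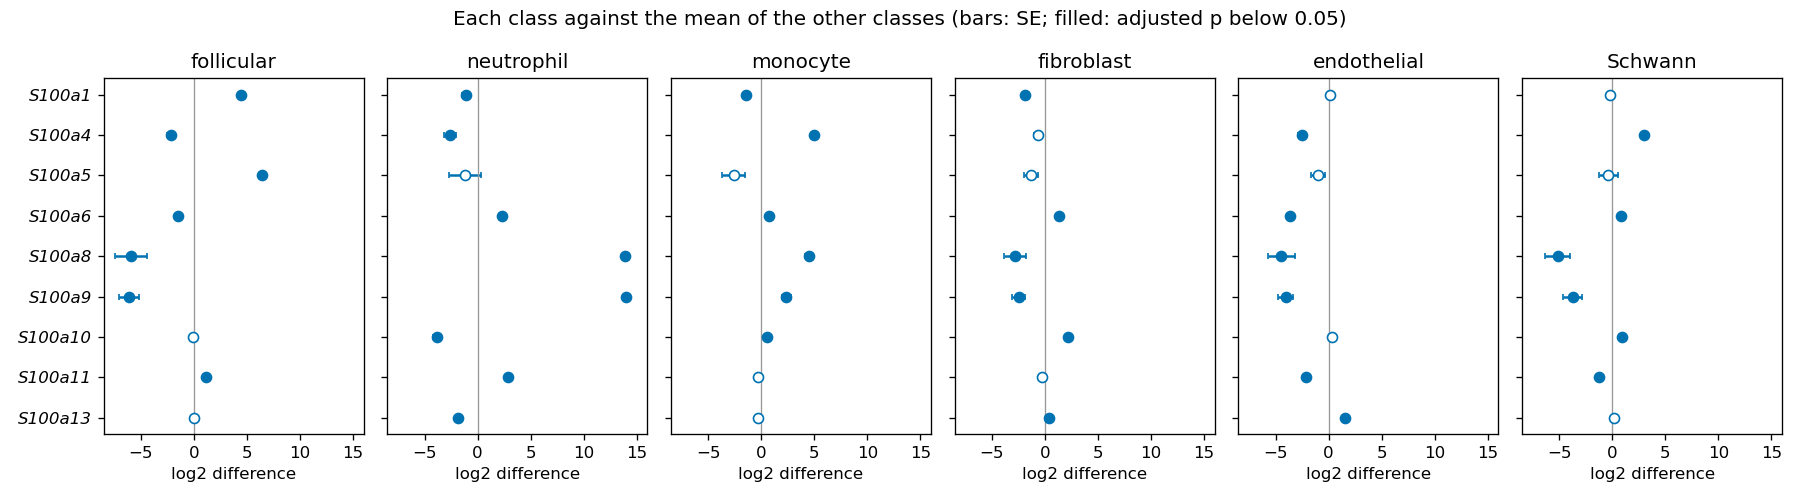
Log2 difference of each class from the mean of the other 5 classes for the 9 members tested, with bars of 1 SE and filled points where the edgeR adjusted p is below 0.05. S100a8 and S100a9 lie at 13.89 and 14.04 in neutrophils, S100a1 and S100a5 at 4.46 and 6.42 in follicular cells, and S100a4 at 4.93 in monocytes.

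The median log2 difference of the 9 members was -0.07 in follicular, -1.10 in neutrophil, 0.57 in monocyte, -0.70 in fibroblast, -2.14 in endothelial and -0.21 in Schwann cells. Over all genes tested it was 0.25, -1.11, 0, 0.27, 0.26 and 0.20 in that order. Read by class, the monocyte, fibroblast and Schwann profiles shared S100a6 and S100a10 among the members above the mean of the other classes. That mean includes neutrophils, where S100a10 was lowest. Monocyte S100a10 did not differ from follicular, endothelial or Schwann cells (edgeR adjusted p = 0.07024, 0.473 and 0.4532). It was below fibroblasts (log2 difference -1.30, SE 0.25, edgeR adjusted p = 4.992e-05). Monocyte S100a6 was below neutrophils and did not differ from fibroblasts (edgeR adjusted p = 0.0994) or Schwann cells. In monocytes 5 members were higher and 1 lower, where 26% of all genes were higher and 14.5% lower. S100a4 (4.93, SE 0.24, edgeR adjusted p = 9.731e-18) and S100a8 led, while S100a6 (0.70, SE 0.20, edgeR adjusted p = 0.005549) and S100a10 (0.57, SE 0.21, edgeR adjusted p = 0.02808) lost the call with DESeq2, without the library block, without the library labelled day 10 or 30 and with DESeq2's size factors in edgeR, where 3 members were higher and 4 lower. S100a10 also lost it at a 5% mitochondrial limit and with cells over 10000 UMIs kept. The scaling by DESeq2's size factors moved the median of all genes in this comparison from 0 to -0.33 and the calls over all genes from 2687 higher and 1500 lower to 2034 higher and 2454 lower. In fibroblasts S100a10 (2.13, SE 0.18, edgeR adjusted p = 7.653e-12), S100a6 (1.32, SE 0.19, edgeR adjusted p = 5.067e-07) and S100a13 (0.40, SE 0.16, edgeR adjusted p = 0.04042) were higher and 3 members were lower, where 36.9% of all genes were higher and 15.2% lower. The S100a13 call was lost at a 5% mitochondrial limit, without the block and without the library labelled day 5, 10 or 20, and the lower S100a8 call without the library labelled day 30, at that limit, with 12% of cells removed as doublets and with cells over 10000 UMIs kept. In Schwann cells S100a4 (2.99, SE 0.27, edgeR adjusted p = 8.929e-11), S100a10 (0.87, SE 0.21, edgeR adjusted p = 0.001373) and S100a6 (0.81, SE 0.20, edgeR adjusted p = 0.001667) were higher and 3 members were lower, where 25.3% of all genes were higher and 11.9% lower. The S100a10 call in Schwann cells was lost with cells over 10000 UMIs kept.

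Over the 24 sums of class and library, the genes with the pattern most like each member were found by Pearson correlation of log2(CPM + 10) among 3122 genes. The sums of a library share their sequencing, and the sums of a class share their cell type, so these correlations are a description. S100a8 was most like Hcar2 (r = 0.99), Ccr1 (0.98) and Trim30b (0.98), and S100a9 most like Il1r2, Acod1 (both 0.98) and Slpi (0.97). Among the genes most like S100a5 were Dio1 (0.99), the type 1 deiodinase, and Grp (0.98). S100a1 was most like Gpx4, Spint2 (both 0.93) and Grp (0.92). S100a4 was most like Fam49a (0.91), Rassf4 and Arhgef10l (both 0.88), and S100a6 most like Celf2 (0.86), Anxa1 (0.85) and G0s2 (0.84). S100a10 was most like Lrpap1 (0.92), Rexo2 and Anxa5 (both 0.91). S100a11 was most like Ctsd (0.93), Slc25a33 (0.89) and Grina (0.86), and S100a13 most like B230219D22Rik (0.95), Tmem109 (0.94) and 0610010K14Rik (0.93). S100g stayed under the level needed for this comparison.

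Of 7 other S100 genes, 3 passed the filter on low counts, and all 3 were higher in the follicular class, where 38.6% of all genes were higher. S100a14 held 838 UMIs in follicular cells, 53 in endothelial cells and 8 or fewer in each other class of the 6. Its follicular level thus also decided that it was tested. The count of 3 and the follicular median below are therefore not read as a result about these genes. S100b, the glial member, stood at 700, 579, 576 and 410 CPM in Schwann cells (5.12 above the other classes, SE 0.20, edgeR adjusted p = 2.834e-20) and at 154, 229, 169 and 144 CPM in follicular cells (3.27, SE 0.20, edgeR adjusted p = 3.916e-15). S100a14 stood at 46.6, 196, 39.8 and 177 CPM in follicular cells (5.98, SE 0.30, edgeR adjusted p = 4.337e-17). S100a16 stood at 321, 309, 306 and 403 CPM in endothelial cells (2.20, SE 0.18, edgeR adjusted p = 4.361e-12) and in an overlapping range of 272.7 to 402.7 CPM in Schwann cells (2.07, SE 0.21, edgeR adjusted p = 1.279e-09). S100a7a was not tested and had its highest mean among the 6 classes, 12.1 CPM, in neutrophils. The median log2 difference of these 3 genes was 3.27 in follicular, -2.13 in neutrophil, -3.33 in monocyte, -0.29 in fibroblast, -0.10 in endothelial and 2.07 in Schwann cells.

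Of 14 genes for known partners of S100 proteins, 11 were tested. Follicular cells had 4 higher and 5 lower, neutrophils 4 and 3, monocytes 3 and 2, fibroblasts 4 and 2, endothelial cells 5 and 5, and Schwann cells 1 and 2. Of all genes tested, 38.6%, 15.7%, 26%, 36.9%, 35.6% and 25.3% were higher in these classes in that order, and 19%, 32.6%, 14.5%, 15.2%, 13.7% and 11.9% lower. Their median log2 differences in that order were -0.68, -0.14, 0.02, 0.115, 0.50 and 0.05. Ager, the receptor for advanced glycation end products, which also binds S100 proteins, stood at 1392, 1035, 1495 and 1345 CPM in follicular cells (6.0 above the other classes, SE 0.20, edgeR adjusted p = 2.358e-21). Anxa1, an annexin that binds S100A11, stood at 731, 1104, 1707 and 2071 CPM in neutrophils (2.87, SE 0.24, edgeR adjusted p = 1.508e-11). Anxa2, the annexin that binds S100A10, stood at 1080, 1123, 1223 and 808 CPM in neutrophils (1.10, SE 0.16, edgeR adjusted p = 1.346e-06), the class of the 6 where S100a10 was lowest. Ahnak, a large scaffold protein bound by S100A10, stood at 630, 825, 702 and 701 CPM in fibroblasts (1.29, SE 0.18, edgeR adjusted p = 2.157e-07).

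Of 15 other EF-hand genes, 11 were tested. Follicular cells had 1 higher and 3 lower, neutrophils and monocytes 3 and 1 each, fibroblasts and endothelial cells 4 and 3 each, and Schwann cells 3 and 3, beside 38.6%, 15.7%, 26%, 36.9%, 35.6% and 25.3% of all genes higher and 19%, 32.6%, 14.5%, 15.2%, 13.7% and 11.9% lower in the order follicular, neutrophil, monocyte, fibroblast, endothelial and Schwann. Their median log2 differences in that order were -0.27, 0.30, -0.10, 0.09, -0.06 and -0.13. Efhd2 stood at 641, 606, 739 and 430 CPM in neutrophils (3.63, SE 0.17, edgeR adjusted p = 3.363e-18), and Calm2, a calmodulin gene, at 641, 537, 586 and 518 CPM in the same cells (0.40, SE 0.15, edgeR adjusted p = 0.02652). Capns1, the small calpain subunit, stood at 409, 491, 348 and 279 CPM in Schwann cells (0.66, SE 0.16, edgeR adjusted p = 0.001482).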

How the data were processed

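Dissociated thyroid tissue was measured by droplet 3′ single-cell RNA sequencing, and the deposited matrices hold raw UMI counts per gene and droplet, which the authors made with Cell Ranger on mm10 without a filter on cells. The submitters' notes also name Seurat 3.1.4 and 3.6.3. Of the joined table of raw counts that the authors also deposited, the list of 37503 cell barcodes alone was used. Each barcode went to the library that held most of its UMIs. Cells with 200 to 10000 UMIs, at most 10% mitochondrial and at most 5% haemoglobin UMIs were kept, and the 6% with the highest Scrublet score were removed as doublets. The 23116 cells were clustered in Seurat 5.3.0 (SCTransform and canonical correlation integration, 3000 features, 30 components, resolution 0.9). The 31 clusters were named from marker genes, with the naming rule settled after the clusters were seen.

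Counts were summed per class and library, giving 24 sums, and tested with edgeR 4.0.16 (quasi-likelihood, TMM, filterByExpr, class plus library) at an adjusted p under 0.05. Same-numbered sums share a library, which is the block of the fit. CPM intervals (exact Poisson) and shares (exact binomial) are at 95% and cover counting error only, and 0 UMIs are read as up to 3. The mice were pooled, so p-values do not measure the spread between mice. With library-wide shifts taken out by the block, they measure how far a class difference varies between 4 libraries of different labelled ages. In simulated data for the neutrophil comparison, with 200 of 10352 genes changed, 16% of 2-fold and 70% of 4-fold changes were recovered with 2 false calls. From each list up to 4 genes were named, those with the highest mean CPM in any of the 6 classes, and likeness was taken over genes with at least 100 CPM in at least 4 sums, for members that reach 100 CPM in a class of every library. Alternatives were DESeq2 1.42.0, other scaling, filters, cell limits, clustering and the removal of each library. The members and lists were chosen with earlier results of these data known. Protein sequences were not used here, and 2 genes that these rules would name are not reported here.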

Additional observations from a re-analysis of the deposited data

Results flagged for a closer look

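In 1 cluster outside the 6 classes tested, the mean of 2 members over the libraries lay above the highest single value of those classes. In the cluster of 453 cells led by Trdc and Il17a, the mean over the 4 libraries was 3435.86 CPM of S100a4, where the highest value of the 6 classes was 2542.68 CPM in monocytes, and 1979.51 CPM of S100a10, where the highest value was 1597.91 CPM in fibroblasts. The cluster held 318, 56, 59 and 20 cells in the libraries labelled day 5, 10, 20 and 30, and these differences were not tested.

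S100g in droplets that were not listed as cells stood at 23.74 CPM in the library labelled day 30, above 4.95 CPM, its highest level there among the 6 classes. These were 68 UMIs in 65 droplets, with at most 2 UMIs in any droplet. In the library labelled day 10 the free level was 2.48 CPM from 7 UMIs, beside 1.63 CPM in follicular cells from 2 UMIs. With 1 library per age, no group had the 4 samples needed to look for a sample that stands apart.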

How the results depend on the processing

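Of 39 called differences between a class and the others, recomputed under 14 alternatives each, 512 of 546 values kept their direction and call, 34 lost the call and 0 changed sign. The calls lost were the S100a6 and S100a10 excess in monocytes, the S100a10 excess in Schwann cells, the S100a13 excess in fibroblasts, the S100a1 deficit in neutrophils and the S100a8 deficit in follicular, fibroblast and endothelial cells, which rests on 0 to 50 UMIs per sum. The cause was not tested.

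In monocytes 3 members were higher with DESeq2, with its size factors in edgeR, without the library block, and without the library labelled day 10 or 30. The number lower there was 4 with DESeq2 or its size factors, 3 at a mitochondrial limit of 5%, and 2 without the filter on low counts, with cells of at least 1000 UMIs or without the library labelled day 10. In fibroblasts 5 members were lower with DESeq2 or with 12% of cells removed as doublets. Leaving out 1 library at a time gave 3 to 5 members higher and 1 to 2 lower in monocytes, 2 to 3 and 2 to 4 in fibroblasts, 4 and 3 to 4 in neutrophils, 3 and 3 to 4 in follicular, 1 and 4 to 5 in endothelial and 3 and 3 in Schwann cells.

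The fit without the library block, the only pairing of the sums, lost 4 member calls (S100a1 in neutrophils, S100a6 and S100a10 in monocytes, S100a13 in fibroblasts), gained none, and left 1 of the 2 pairs of neighbouring classes that differed in S100a1, as did leaving out the library labelled day 5 or 20. Differences that were not called changed sign 15 times. For S100a13 in follicular cells the log2 difference was -0.0403 without the filter, -0.0188 to 0.0682 with 1 library left out, -0.2354 without the upper UMI limit and -0.0599 with at least 1000 UMIs. For S100a13 in Schwann cells it was -0.0692 without the filter and -0.1828 without the upper limit. For S100a10 in follicular cells it was -0.1625 to 0.2142 with 1 library left out, 0.0435 without integration and 0.0046 with S100 genes as features. With 1 library left out, S100a5 was at -1.4238 to 0.114 in fibroblasts and at -0.6807 to 0.4904 in Schwann cells, above 0 in both only without the library labelled day 5. Without the upper limit, S100a11 in fibroblasts was at 0.0353 and S100a1 in endothelial cells at -0.0537, and with DESeq2 S100a1 in Schwann cells was at 0.0385. Of 420 recomputed levels, 11 moved by more than the spread between libraries.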
